A study of Mus musculus with 80 samples.

Results

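Opposite-strand noncoding transcripts, long RNAs that the annotation names after the protein-coding gene on the other strand, were followed through the depletion of 4 nuclear RNA factors in mouse embryonic stem (mES) cells. They were taken from the gene tables by name, as symbols ending in os or in os and a digit, with reads in at least 40 of the 80 libraries. Of 22556 genes, 140 had such a name and 114 passed the minimum of libraries. Of these 114, 93 are noncoding and lie on the strand opposite to the gene they are named after, here called the sense gene, and they are the subject of what follows. Another 9 are protein-coding genes with an opposite-strand name, and 12 are protein-coding genes whose symbol merely ends in the same letters, such as Sos1 and Uros. Both sets are described apart at the end. The least covered transcript that was kept, Dnmt3aos, had reads in 41 libraries, whereas Gata5os (39) and Peg3os (38) fell just outside.

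Chromatin-associated RNA was sequenced after rRNA removal with strand information. All cells come from a Cast x 129S cross and carry a TetOn promoter in front of Xist on 1 of the alleles, from which doxycycline (Dox, 24 h) induces the RNA. The promoter sits on the Cast allele in the METTL3, ZFC3H1 and transgene lines, and on the 129S allele, with Bgl stem-loops in Xist, in the ZCCHC8 and YTHDC1 lines. Each target carried an FKBP12 F36V degron tag, through which dTAG-13 removes the protein. Libraries of every line came from untreated cells and from cells given dTAG, Dox or both (dTAG + Dox), and the titles give dTAG for 26 h where the treatment field of the dTAG libraries gives 2 h. ZCCHC8 (clones Z4F and Z12H), ZFC3H1 (8H and 11A) and YTHDC1 (Y9F and Y12H, sequenced in 2 experiments) had 2 clones each, and METTL3 had 4 (N-terminal tag in G4 and H1, C-terminal tag in C3 and H5). The transgene lines were made in clone H5 of the METTL3 degron, with a GFP-METTL3 transgene at Rosa26 that is either wild type (WT) or D395A, a catalytic-site mutant, in cells labelled XX or XiO. Each transgene line was a single clone in 2 experiments, so its replicates carry no spread between clones.

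RNA polymerase II often starts in both directions at an active promoter, and the upstream product is in most cases short-lived. The nuclear exosome degrades such RNA with the help of adaptor complexes. NEXT, built from ZCCHC8, RBM7 and the helicase MTREX, hands over short and unadenylated RNA, and PAXT, in which ZFC3H1 joins MTREX, hands over longer polyadenylated RNA. METTL3 is the catalytic subunit of the enzyme that writes m6A on nascent RNA, and YTHDC1 is the nuclear protein that reads it.

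The 93 transcripts differed in where they start. For 43 the annotated start lay within 2.5 kb of the sense start (head to head), with 24 of them starting upstream of it and 19 within the sense gene. A further 41 overlapped the sense gene but started far from its start (called inside below), and 9 lay apart from it. Their spans ran from 0.495 to 147.6 kb with a median of 10.9 kb, against 15.6 kb over all genes. Levels were low. The mean over all libraries was at or above 1 CPM (reads scaled to library size) for 26 of them and the median was 0.461 CPM. Per kb of span, the median was 0.0452 CPM, against 0.461 CPM for the sense genes, and 77 of the 93 lay below their own sense gene. Reads were counted over the whole span, introns included, so these levels are of unspliced and spliced RNA together. On the strand of the transcript, 4 overlapped another annotated gene and 9 had a gene ending within 10 kb upstream, of which Ppp1r3fos (over Foxp3) and Tmem150cos (downstream of Enoph1) were abundant enough to test. Their values are uncertain for that reason.

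Some of the closely spaced pairs are shown here by sequence. The stretch between the annotated starts of transcript and sense gene is given for 5 transcripts whose RNA rose in the comparisons below, read from the GRCm38.p6 (RefSeq) genome 5′ to 3′ on the strand of the os transcript, so that its start follows the last base. Capitals mark GGGCGG, the core of the Sp1/Sp3 recognition site, or CCAAT, each on either strand, and TATAAA was searched too. In Ino80dos the first pair of GGGCGG matches overlaps.
Stamos, chr2:14073935-14074110, minus strand: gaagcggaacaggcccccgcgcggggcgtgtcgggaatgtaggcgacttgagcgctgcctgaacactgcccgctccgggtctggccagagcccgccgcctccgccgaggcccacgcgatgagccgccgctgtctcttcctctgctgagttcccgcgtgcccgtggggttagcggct
Cep83os, chr10:94688614-94688788, minus strand: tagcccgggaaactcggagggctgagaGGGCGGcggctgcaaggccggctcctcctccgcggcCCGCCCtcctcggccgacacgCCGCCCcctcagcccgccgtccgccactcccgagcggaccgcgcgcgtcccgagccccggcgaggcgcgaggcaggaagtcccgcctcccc
Sp3os, chr2:72979282-72979430, plus strand: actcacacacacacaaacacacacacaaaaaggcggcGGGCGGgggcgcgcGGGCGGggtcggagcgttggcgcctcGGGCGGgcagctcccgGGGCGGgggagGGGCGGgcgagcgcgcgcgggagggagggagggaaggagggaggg
Map2k3os, chr11:60931868-60932055, minus strand: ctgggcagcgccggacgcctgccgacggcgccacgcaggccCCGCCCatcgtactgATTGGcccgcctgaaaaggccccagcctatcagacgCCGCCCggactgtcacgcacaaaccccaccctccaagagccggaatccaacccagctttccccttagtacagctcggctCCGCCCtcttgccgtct
Ino80dos, chr1:63114268-63114469, plus strand: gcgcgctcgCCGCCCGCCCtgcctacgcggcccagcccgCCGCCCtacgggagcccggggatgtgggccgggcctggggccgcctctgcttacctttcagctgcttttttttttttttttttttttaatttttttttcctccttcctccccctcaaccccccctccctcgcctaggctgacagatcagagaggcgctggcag

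All are rich in CpG, with 22 CpG in the 176 bp at Stamos, 27 in 175 bp at Cep83os, 20 in 149 bp at Sp3os, 18 in 188 bp at Map2k3os and 15 in 202 bp at Ino80dos. GGGCGG occurred 5 times at Sp3os, 3 times each at Cep83os, Map2k3os and Ino80dos and 0 times at Stamos. Over 16 pairs with a stretch of up to 300 bp between their starts (none of them overlapping), 9 held GGGCGG, 7 held CCAAT and 0 held TATAAA. Chromosome 18 and stretches of up to 20 bp were left out of this count. In windows from 250 bases before to 50 bases after the annotated start, GGGCGG was present at 24 of 43 head-to-head transcripts and at 7 of the 41 of the inside class, against 46.8% of all genes. CCAAT was present at 16 of 43 and 20 of 41 (38.1% of all genes), and TATAAA at 2 of 43 and 5 of 41 (12.8%). The median number of CpG in that window was 20 for the head-to-head transcripts, the same as for the start of their sense genes, and 5 for those inside. Downstream of the start, in the first 1 kb on the strand of the transcript, AATAAA, the hexamer of the polyadenylation signal, was found in 25 of the 93 transcripts (26.9%), in 8.70% of their sense genes and in 23.5% of all genes. GTAAGT, a form of the 5′ splice site, was found in 28.0%, 19.6% and 20.5% of these. Such matches describe the sequence alone.

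Depth recovered from the CPM values ranged from 8.58 to 34.4 M reads per library, with a median of 22.5 M. RNA of the depleted gene itself does not report the loss of its protein, and it passed the test in 0 of 10 contrasts (limma), with Zcchc8 at 49.5 to 61.9 CPM untreated and 47.5 to 59.3 CPM with dTAG. Of 8 mES markers, 7 had reads in every library and Sox2 was listed at 0 in all 80. The summed level of 8 fibroblast (feeder) markers was 3.38 to 4.54 CPM in untreated ZCCHC8 cells and 4.44 to 5.86 CPM with dTAG, and with Dox it was 3.43 to 4.70 CPM and 4.06 to 5.48 CPM. Of these 8, 1 was called higher without Dox and 0 with Dox. The sum of 8 markers of differentiated cells was 10.1 to 13.5 CPM untreated and 16.6 to 17.4 CPM with dTAG. It was 11.6 CPM in both Dox libraries and 15.4 to 16.3 CPM with dTAG + Dox. These groups did not overlap, and 1 of the 8 was called higher in each contrast. Pax6, 1 of the 8 and the sense gene of Pax6os1, was at 3.72 and 6.28 CPM in untreated Z4F and Z12H. With dTAG it was at 7.26 and 7.89 CPM. Of the mES markers, 1 was called lower in ZCCHC8 cells without Dox and 3 with Dox. Over all genes tested, 19.9% were called higher and 16.2% lower without Dox, and 25.2% and 15.2% with Dox. The part of these shifts in the results was not tested. In such bulk data a lower level per cell and fewer cells with the RNA cannot be told apart.

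Loss of ZCCHC8 raised most of the opposite-strand transcripts. Without Dox, 24 of the 32 that passed the expression filter (a mean of 1 CPM) were higher with dTAG and 0 were lower, where 19.9% of all 13857 genes tested were higher and 16.2% lower. With Dox, 25 of 32 were higher and 0 lower, against 25.2% and 15.2% of all genes. The median change was 0.89 without Dox and 0.84 with Dox on the log2(CPM + 1) scale, against -0.01 and 0.04 for all genes. Median-ratio scaling turned the balance over all genes, from 2756 higher and 2240 lower to 2521 and 3050 without Dox and from 3490 and 2108 to 2614 and 4009 with Dox, while 23 of the 32 transcripts were higher under it in each contrast. The smallest changes that passed the test were 0.39 and 0.41, and 24 transcripts passed it in both contrasts. The 4 libraries with dTAG held 488 to 556 CPM over all 93 transcripts together, and the 4 without it 240 to 265 CPM. Leaving out the 4 most abundant transcripts, the sums were 224 to 259 CPM with dTAG and 96.8 to 103 CPM without, so the groups did not overlap in either sum.

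The filter left 61 of the 93 transcripts untested, and because it counts libraries with dTAG, some passed only through them. When the mean was taken over libraries without dTAG, 21 of 29 and 23 of 29 were higher, and Stamos and Tbx3os2 fell below the filter. With no filter, 51 of 93 transcripts were higher without Dox (17.2% of all genes) and 53 of 93 with Dox (21.8%), including 28 and 30 of the 61 weakest, and 0 were lower (9.65% and 9.34% of all genes).

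**Figure D1:**
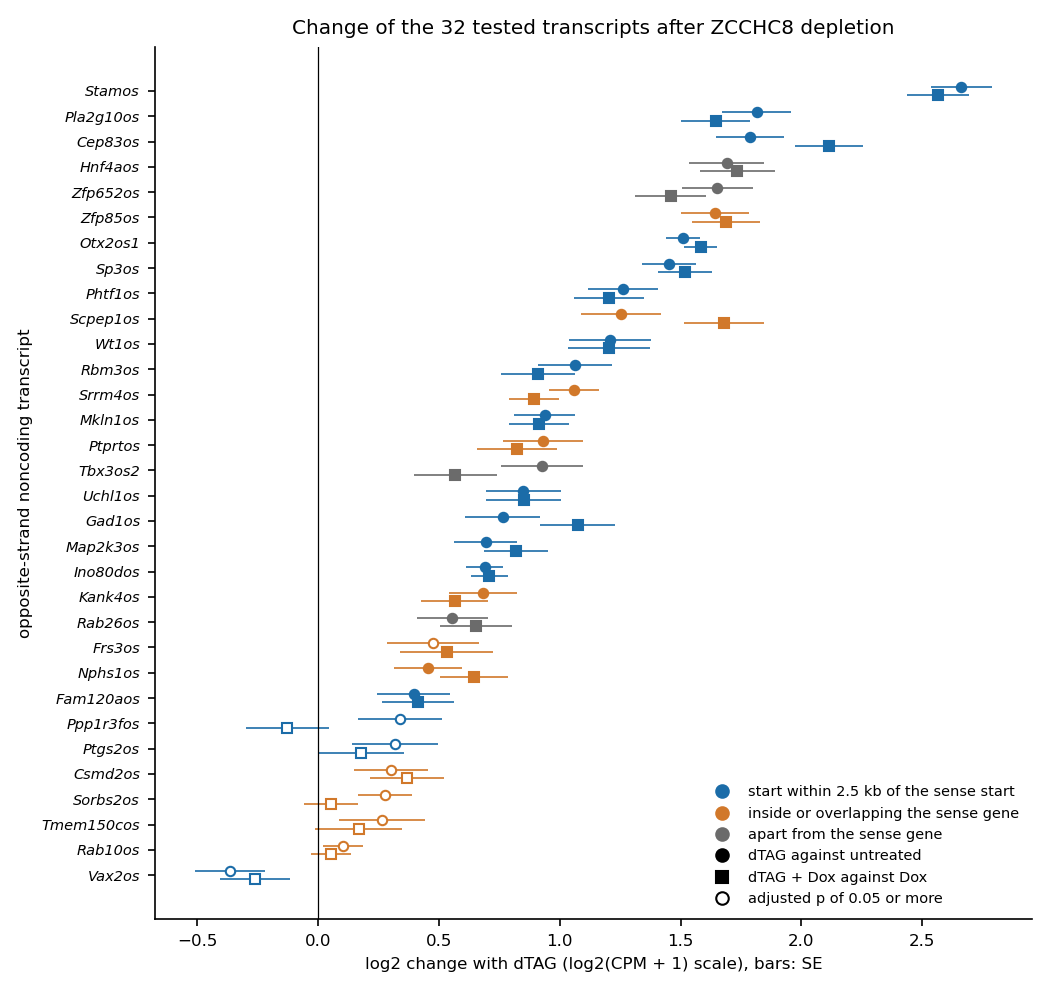
Log2 change with dTAG (x axis, log2(CPM + 1) scale, bars are SE) of the 32 tested opposite-strand transcripts (y axis) in the ZCCHC8 line, without Dox (circles) and with Dox (squares), coloured by position. Filled symbols passed the test, and these all lie to the right of 0, with Stamos farthest out at 2.66 and 2.57. Stamos passed the expression filter only through the libraries with dTAG.

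Stamos, head to head with Stam (an adaptor of endosomal sorting) on chromosome 2, showed the largest change. Its level was 0.53 CPM in Z4F and 0.77 CPM in Z12H untreated, 8.12 and 10.8 CPM with dTAG, 0.52 and 0.98 CPM with Dox, and 7.94 and 10.8 CPM with dTAG + Dox. The 4 dTAG libraries were thus all far above the others, on 30 reads in the untreated libraries together and 351 with dTAG. The ratio of the means was 14.7 without Dox, and the log2 change was 2.66 ± 0.13 (SE; limma adjusted p = 4.5e-10). Stamos passed the expression filter only through the libraries with dTAG, where it is high. With the filter on the other libraries it was not tested in either contrast. Stam itself had group means of 122 to 137 CPM, with log2 changes of -0.08 ± 0.06 and 0.09 ± 0.06 that did not pass the test.

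Cep83os, divergent from the centriolar gene Cep83, was at 3.87 and 3.38 CPM in untreated Z4F and Z12H and at 12.3 and 18.1 CPM with dTAG. With Dox it was at 2.09 and 2.84 CPM and with dTAG + Dox at 12.6 and 15.4 CPM, so that the log2 changes were 1.79 ± 0.14 and 2.11 ± 0.14. Cep83 moved the other way, from 224 to 187 CPM (-0.26 ± 0.07, adjusted p = 0.0085) and from 203 to 164 CPM (-0.31 ± 0.07, adjusted p = 0.0022). Sp3os starts 150 bp from Sp3, which encodes a transcription factor of GC boxes. Its level was 5.21 and 5.32 CPM untreated, 16.05 and 16.2 CPM with dTAG, 5.60 and 5.00 CPM with Dox, and 17.4 and 16.6 CPM with dTAG + Dox. Clones therefore differed by much less than the treatments did (1.45 ± 0.11 and 1.52 ± 0.11), and Sp3 did not pass the test in either contrast (-0.01 ± 0.05 and 0.09 ± 0.05).

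Otx2os1 starts 1643 bp upstream of Otx2, a homeobox gene of the early epiblast and the brain, and was among the most abundant opposite-strand RNAs. It rose from 51.5 and 45.1 CPM untreated to 155 and 125 CPM with dTAG, and from 41.9 and 35.3 CPM with Dox to 118 and 116 CPM with dTAG + Dox. Its log2 changes were 1.51 ± 0.07 and 1.58 ± 0.07 (adjusted p = 3.0e-10 and 1.4e-10), and Otx2 rose less, by 0.61 ± 0.09 and 0.46 ± 0.09. Map2k3os, which per kb was above its sense gene (2.69 against 0.977 CPM), rose by 0.69 ± 0.13 and 0.82 ± 0.13. Map2k3, a kinase that activates p38, fell by 0.47 and 0.45 (adjusted p = 0.0020 and 0.0024). Ino80dos, opposite a subunit gene of the INO80 remodeller, was at 54.7 and 61.0 CPM untreated, 86.6 and 102 CPM with dTAG, 47.3 and 58.5 CPM with Dox, and 72.1 and 104 CPM with dTAG + Dox. Its log2 changes were 0.69 ± 0.08 and 0.71 ± 0.08, while Ino80d stayed below the threshold at -0.02 ± 0.06 and -0.12 ± 0.06. Rab10os, the remaining one of the 4 most abundant transcripts, lies at the far end of Rab10 and was at 34.0 and 34.6 CPM untreated and 38.5 and 35.3 CPM with dTAG. It did not pass the test in either contrast (0.10 ± 0.08 and 0.05 ± 0.08).

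**Figure D2:**
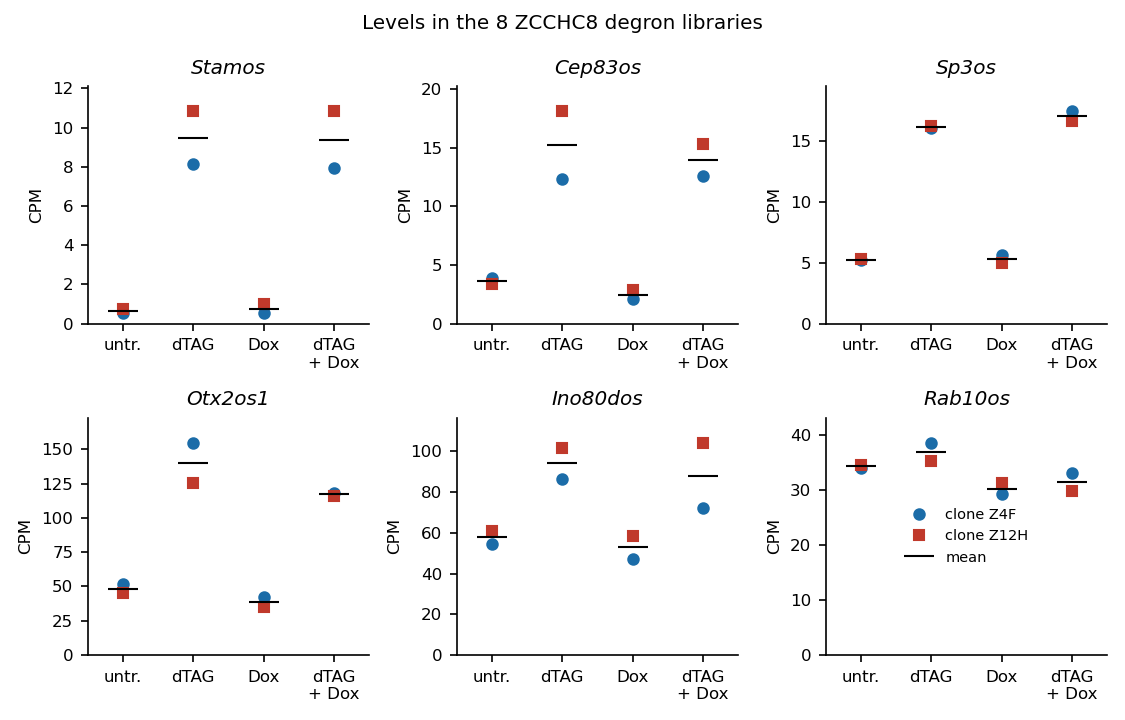
CPM (y axis, from 0) of 6 opposite-strand transcripts in each of the 8 ZCCHC8 libraries by treatment (x axis), with circles for clone Z4F, squares for clone Z12H and dashes for the mean. In 5 of the panels the dTAG libraries lie above those without dTAG in both clones, whereas Rab10os stays between 29.2 and 38.5 CPM.

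The other transcripts named by the ranking fell into each position class. Pla2g10os, which starts inside the phospholipase gene Pla2g10, rose from a mean of 1.75 to 8.69 CPM without Dox (1.82 ± 0.14) and from 2.82 to 10.9 CPM with Dox (1.64 ± 0.14). Zfp85os, at the far end of the zinc finger gene Zfp85, rose from 3.73 to 13.8 CPM and from 2.87 to 11.5 CPM (1.64 ± 0.14 and 1.69 ± 0.14). Hnf4aos and Zfp652os lie apart from their sense genes, 5466 and 36312 bp from the sense start to their own. Hnf4aos rose by 1.69 ± 0.16 and 1.73 ± 0.16 although Hnf4a, a liver transcription factor, was too low to test. Zfp652os rose by 1.65 ± 0.15 and 1.46 ± 0.15 while Zfp652 fell by 0.58 and 0.59. Scpep1os, within and beyond the peptidase gene Scpep1, rose by 1.25 ± 0.17 and 1.68 ± 0.17. Phtf1os, Wt1os and Mkln1os are head to head with Phtf1, the kidney and gonad transcription factor gene Wt1 and the muskelin gene Mkln1, and rose by 1.26 and 1.20, by 1.21 and 1.20, and by 0.94 and 0.91. The 12 further transcripts that passed the test in both contrasts (Map2k3os, Ino80dos, Rab26os, Fam120aos, Gad1os, Ptprtos, Kank4os, Uchl1os, Srrm4os, Tbx3os2, Nphs1os and Rbm3os) rose by 0.39 to 1.07. Of these, Fam120aos had an adjusted p of 0.049 and 0.037 and was lost under most alternatives. Frs3os passed the test with Dox only (0.53 ± 0.19, against 0.47 ± 0.19 without).

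By position, 14 of 17 tested head-to-head transcripts were higher in each contrast, 6 (without Dox) and 7 (with Dox) of 11 inside the sense gene, and 4 of 4 that lie apart. The median changes were 0.94, 0.47 and 1.29 without Dox and 0.91, 0.56 and 1.06 with Dox. With no filter on low values 25 and 27 of 43, 20 and 20 of 41, and 6 and 6 of 9 were higher. No test between the classes was made. The 7 transcripts that passed in neither contrast were Rab10os, Sorbs2os, Csmd2os, Tmem150cos, Ptgs2os, Vax2os and Ppp1r3fos, and Vax2os had the only negative change in both (-0.37 ± 0.15 and -0.26 ± 0.15, adjusted p = 0.059 and 0.16). Under median-ratio scaling Vax2os was called lower without Dox (-0.40 ± 0.15, adjusted p = 0.04), the single transcript called lower in the ZCCHC8 line under any alternative run. AATAAA lay in the first 1 kb of 10 of the 24 transcripts that rose in both contrasts and of 1 of the other 8 tested, and GTAAGT in 5 and 2, which is given as a description.

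Sense genes of the transcripts that rose moved in both directions. Of the 24 transcripts that rose without Dox, 5 had a sense gene that also rose, 7 had a sense gene that fell and 11 had a sense gene that passed in neither direction, with 1 sense gene not tested. With Dox these numbers were 7, 8, 9 and 1. The share of these partners that fell was not tested against that of all genes (16.2% and 15.2%). Over all 75 sense genes tested, 20 rose and 11 fell without Dox (19.9% and 16.2% of all genes) and 23 rose and 10 fell with Dox (25.2% and 15.2%). The sense genes that rose with their partner in both contrasts were Otx2, Wt1, Gad1, Ptprt and Srrm4. Srrm4, a splicing regulator of neurons, rose from 8.02 to 14.8 CPM and from 9.82 to 19.5 CPM, and Srrm4os from 10.4 to 22.9 CPM and from 12.4 to 24.2 CPM. The sense genes that fell in both were Cep83, Map2k3, Zfp652, Fam120a, Phtf1, Mkln1 and Rbm3, by 0.21 to 0.59. Rbm3, a cold-inducible RNA-binding protein gene, fell from 238 to 201 CPM and from 214 to 166 CPM, whereas Rbm3os rose from 1.44 to 4.11 CPM and from 1.36 to 3.41 CPM.

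**Figure D3:**
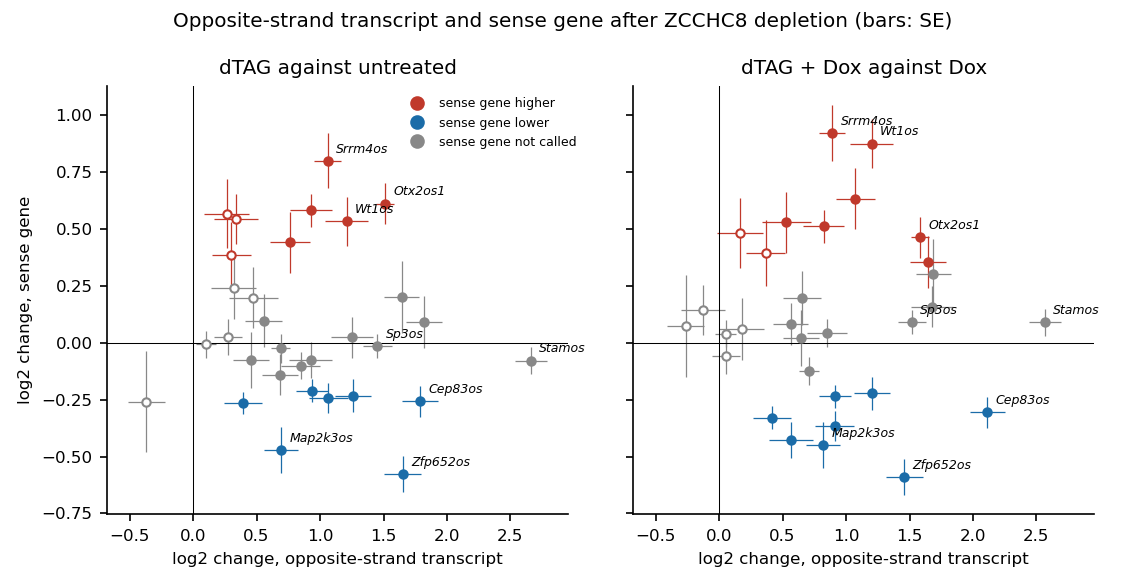
Log2 change with dTAG of each sense gene (y axis) against that of its opposite-strand transcript (x axis) in the ZCCHC8 line, without Dox (left) and with Dox (right), with SE bars. Red and blue mark sense genes called higher and lower, grey those not called, and open symbols transcripts not called. Transcripts with large changes have sense genes above, near and below 0.

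Of 23 genes of the NEXT, PAXT and exosome machinery fixed as a list, 1 was called higher and 5 lower in each ZCCHC8 contrast. Over all genes, 19.9% were higher and 16.2% lower without Dox, and 25.2% and 15.2% with Dox. The higher one was Exosc6, an exosome core subunit (0.91 ± 0.13 and 1.03 ± 0.13), and those lower in both were Pabpn1, Zc3h18, Srrt and Exosc7, between -0.50 and -0.20. Zcchc8 and its partner Rbm7 passed in neither direction, whereas Skiv2l2, the gene of the NEXT helicase MTREX, was lower with Dox only (-0.18 ± 0.06, limma adjusted p = 0.017). Exosc8 was lower without Dox only (-0.30 ± 0.08). In both ZFC3H1 contrasts 0 of the 23 were called by limma. After METTL3 loss Exosc6 was higher in both contrasts (0.67 ± 0.18 and 0.62 ± 0.18) and Rbm7 without Dox (0.70 ± 0.16), with 0 lower. These were 2 and 1 of the 23, where 16.9% and 8.6% of all genes were higher. The median gene rose by 0.21 and 0.23 in these contrasts. Srrt, a partner of the cap-binding complex, was lower in all 4 YTHDC1 contrasts, by log2 changes between -0.37 and -0.22, and Exosc6 was higher in the separate YTHDC1 table with Dox (0.38 ± 0.12). Exosc5 was lower in the shared YTHDC1 table without Dox (-0.31 ± 0.08). Over all genes, 8.32% to 10.6% were higher and 5.69% to 9.42% lower in the YTHDC1 contrasts.

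After ZFC3H1 loss, 6 of 31 transcripts were higher and 0 lower in each contrast, where 1.75% of 13544 genes were higher and 0.399% lower without Dox, and 2.53% and 0.62% with Dox. The median change was 0.34 and 0.32, against -0.01 and 0.00 for all genes. The 5 that passed in both contrasts were Rab26os, Phtf1os, Ino80dos, Otx2os1 and Map2k3os, and each of them was also among the 24 that rose in both ZCCHC8 contrasts. Of the 31 transcripts tested here, 21 belonged to those 24, and the overlap was not tested. With no filter on low values, Rab26os lost its call in both ZFC3H1 contrasts, Phtf1os without Dox and Map2k3os with Dox. Ino80dos and Otx2os1 kept their calls in both.

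Rab26os, a transcript of only 0.495 kb apart from the GTPase gene Rab26, had the largest change. It was at 11.6 and 6.30 CPM in untreated 8H and 11A, 24.0 and 20.9 CPM with dTAG, 6.12 and 5.99 CPM with Dox, and 16.1 and 25.0 CPM with dTAG + Dox. The log2 changes were 1.28 ± 0.25 (adjusted p = 0.029) and 1.58 ± 0.25 (adjusted p = 0.0095), and in the ZCCHC8 line they were 0.56 ± 0.15 and 0.65 ± 0.15. Phtf1os rose by 1.01 ± 0.17 and 1.41 ± 0.17, from 2.72 and 2.15 to 5.61 and 6.14 CPM without Dox. Ino80dos was at 63.1 and 46.1 CPM untreated and 115 and 96.4 CPM with dTAG, and at 66.4 and 41.8 CPM with Dox and 124 and 86.9 CPM with dTAG + Dox. Its log2 changes of 0.95 ± 0.10 and 0.96 ± 0.10 were larger in value than those of the ZCCHC8 line, a difference that was not tested because the tables are separate.

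Otx2os1 stood at very different levels in the 2 clones, 81.8 CPM in 8H and 18.3 CPM in 11A untreated, and rose in both, to 142 and 30.0 CPM (0.74 ± 0.10), and with Dox from 79.9 and 22.2 to 153 and 38.1 CPM (0.84 ± 0.10). Without the clone as a block, 0 of the 31 transcripts passed in either contrast (limma, with 6 at an unadjusted p under 0.05 in each), whereas edgeR with the block called 6 in each. Map2k3os rose by 0.84 ± 0.11 and 0.59 ± 0.11. Fam120aos passed only without Dox (0.98 ± 0.20, against 0.48 ± 0.20 with it) and Sorbs2os only with Dox (0.94 ± 0.16, against 0.68 ± 0.16 without). Among their sense genes 0 passed the test.

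The 5 transcripts ranked highest in the ZCCHC8 line (Stamos, Cep83os, Hnf4aos, Pla2g10os and Zfp85os) did not pass the test here, whereas Otx2os1, the next in rank, did. Stamos was at 0.94 and 1.05 CPM untreated and 1.53 and 1.52 CPM with dTAG (0.34 ± 0.17, adjusted p = 0.37). Cep83os was at 4.60 and 4.99 CPM untreated and 4.27 and 5.25 CPM with dTAG (-0.01 ± 0.16, adjusted p = 0.98). Sp3os was at 0.46 ± 0.15 without Dox and 0.23 ± 0.15 with Dox, Zfp85os and Hnf4aos were between -0.14 and 0.34 in both contrasts, and Pla2g10os was at 0.38 and 0.70.

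**Figure D4:**
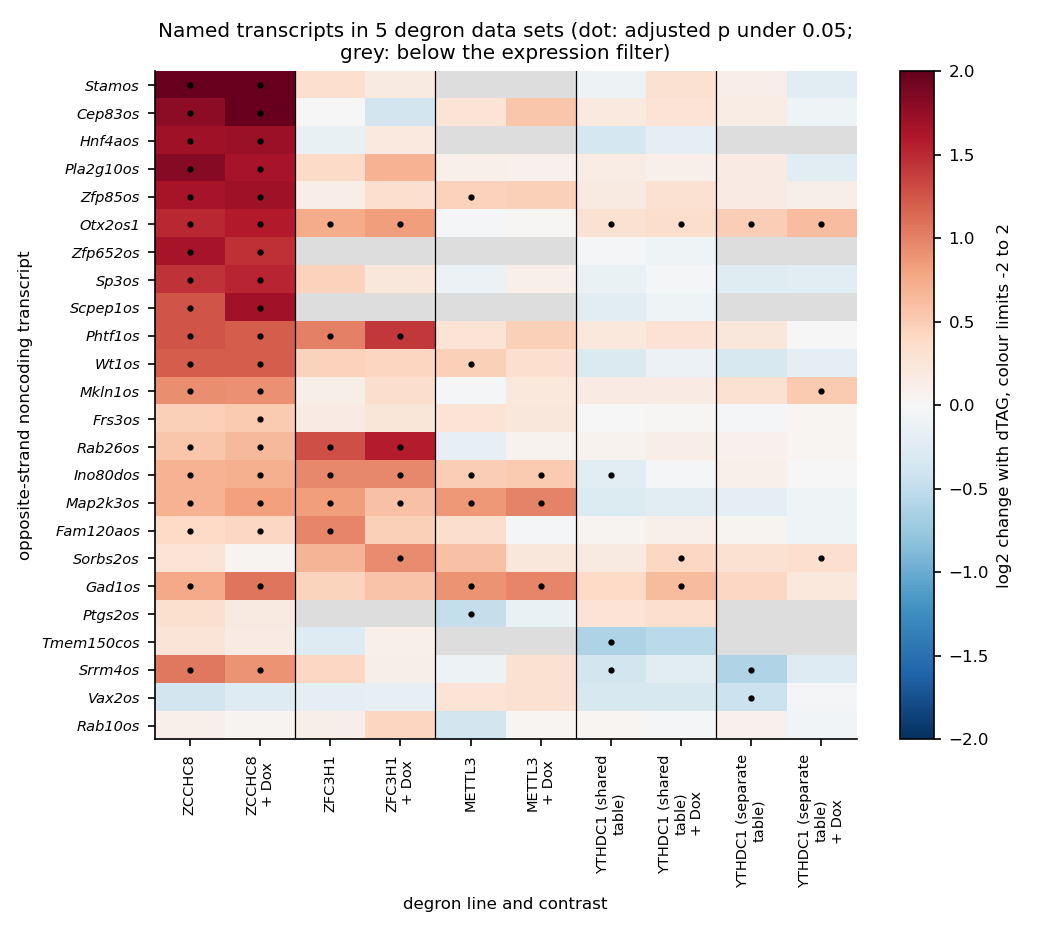
Log2 change with dTAG (colour, limits -2 to 2, which Stamos and Cep83os exceed in the ZCCHC8 line) of the opposite-strand transcripts named in the text (y axis) for each degron line and contrast (x axis). Dots mark an adjusted p under 0.05 and grey a level below the filter. Most transcripts carry a dot in the ZCCHC8 columns and few do in the YTHDC1 columns.

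After METTL3 loss, the share of transcripts that passed the test was near that of all genes, and Map2k3os, Gad1os and Ino80dos passed in both contrasts. Without Dox, 5 of 25 were higher and 1 lower, where 16.9% and 6.34% of 13367 genes were, and with Dox 3 of 25 were higher and 0 lower, where 8.6% and 1.94% were. Under median-ratio scaling the balance over all genes turned, from 2260 higher and 848 lower to 1032 and 1765 without Dox and from 1149 and 259 to 375 and 600 with Dox, and the transcripts were then 2 higher and 2 lower without Dox and 2 higher and 0 lower with Dox. Without clone G4 the calls numbered 1 and 0, and without H5 they numbered 2 and 0. Without the clone as a block they numbered 2 and 1. The median change of all genes was 0.21 and 0.23 after METTL3 loss, and that of the transcripts was 0.19 and 0.28. Genes with a span under 3 kb held 0.498% to 4.57% of the reads in METTL3 libraries, a wider range than in any other degron line, and the part of this in the shift was not tested.

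Map2k3os was at 15.5, 9.95, 16.2 and 15.4 CPM in untreated G4, H1, C3 and H5, and at 28.7, 27.1, 20.1 and 30.5 CPM with dTAG. With Dox it was at 24.2, 17.1, 11.3 and 11.7 CPM and with dTAG + Dox at 32.3, 26.5, 35.0 and 32.5 CPM, so that within each contrast no treated library overlapped its controls. Its log2 changes were 0.86 ± 0.21 (adjusted p = 0.014) and 0.99 ± 0.21 (adjusted p = 0.016), and relative to the median gene 0.65 and 0.76. Under median-ratio scaling they still passed, at 0.61 and 0.72. However, without Dox the call was lost when clone G4, H1 or H5 was left out. With Dox it was lost without G4, C3 or H5 and with only the groups compared. Map2k3 was at 0.50 ± 0.22 and 0.55 ± 0.22 and did not pass.

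Gad1os starts 1194 bp inside Gad1, the gene of the enzyme that makes GABA. It was at 0.83, 0.58, 1.08 and 0.61 CPM untreated and at 2.32, 0.88, 3.61 and 3.03 CPM with dTAG, on 62 and 196 reads. The log2 changes were 0.90 ± 0.19 and 0.97 ± 0.19, and Gad1 rose more, from 4.61 to 14.04 CPM (1.44 ± 0.14) and from 4.32 to 12.3 CPM (1.30 ± 0.14). Gad1os and Gad1 kept their calls under median-ratio scaling. However, Gad1os passed the expression filter only through the libraries with dTAG, and with the filter on the other libraries it was not tested in either contrast. Its call was also lost in both contrasts without the clone as a block (adjusted p = 0.056 and 0.090), without clone G4 (0.059 and 0.091) and without clone H5 (0.059 and 0.11). Ino80dos was at 41.7, 52.6, 53.2 and 44.4 CPM untreated and at 62.0, 78.6, 69.4 and 62.5 CPM with dTAG (0.50 ± 0.10), and changed by 0.52 ± 0.10 with Dox. Relative to the median gene its change was 0.29 in both contrasts, and under median-ratio scaling it lost its call (0.24 ± 0.14 in both, adjusted p = 0.22 and 0.28). Zfp85os (0.47 ± 0.15) and Wt1os (0.48 ± 0.16) passed only without Dox and lost their calls under that scaling. Ptgs2os, divergent from the prostaglandin synthase gene Ptgs2, was lower without Dox (-0.48 ± 0.15, limma adjusted p = 0.038) and kept its call under it. The Ptgs2os call was lost with a pseudocount of 0.1, with only the groups compared, without the block, and without clone G4, H1 or H5. Rab10os did not pass as deposited (-0.36 ± 0.16 without Dox) and was lower under median-ratio scaling (-0.61 ± 0.17, limma adjusted p = 0.022).

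In the transgene lines, which carry the same degron, the values with dTAG could be compared between WT and D395A METTL3 as a description. The log2 change of Map2k3os was 0.14 and 0.18 (mean of 2 experiments, without and with Dox) in WT XX and 0.10 and 0.22 in WT XiO. It was 0.51 and 0.38 in D395A XX and 0.34 and 0.21 in D395A XiO. The log2 change of Ino80dos was 0.16 and 0.21 in WT XX, 0.06 and 0.04 in WT XiO, whereas it reached 0.32 and 0.49 in D395A XX and 0.26 and 0.43 in D395A XiO. The log2 change of Gad1os was 0.08 and -0.22 in WT XX, 0.10 and 0.12 in WT XiO, against 0.71 and 0.73 in D395A XX and 0.68 and 0.36 in D395A XiO. In the D395A lines all experiments of these 3 transcripts had a positive change. In the WT lines Map2k3os also did, except in the first XX experiment with Dox (-0.13). Ino80dos was positive in every WT XX experiment and slightly negative in the first WT XiO experiment of each contrast (-0.02 in both). Gad1os changed in both directions in the WT lines. The median gene of the D395A lines rose by 0.06 to 0.13, and median-ratio scaling narrowed the gap between the lines. Map2k3os was then at 0.35 and 0.29 in D395A XX and 0.17 and 0.06 in D395A XiO, against 0.13 and 0.15 in WT XX and 0.08 and 0.19 in WT XiO. Ino80dos was at 0.16 and 0.40 in D395A XX and 0.10 and 0.27 in D395A XiO, against 0.15 and 0.17 in WT XX and 0.04 and 0.01 in WT XiO. Gad1os stayed further apart, at 0.61 and 0.67 in D395A XX and 0.57 and 0.24 in D395A XiO. In WT XX it was at 0.08 and -0.25, and in WT XiO at 0.08 and 0.10. Thus Map2k3os in XiO cells with Dox was lower in D395A than in WT, and Ino80dos in XX cells without Dox was at nearly the same value in both. The difference between WT and D395A was not tested.

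**Figure D5:**
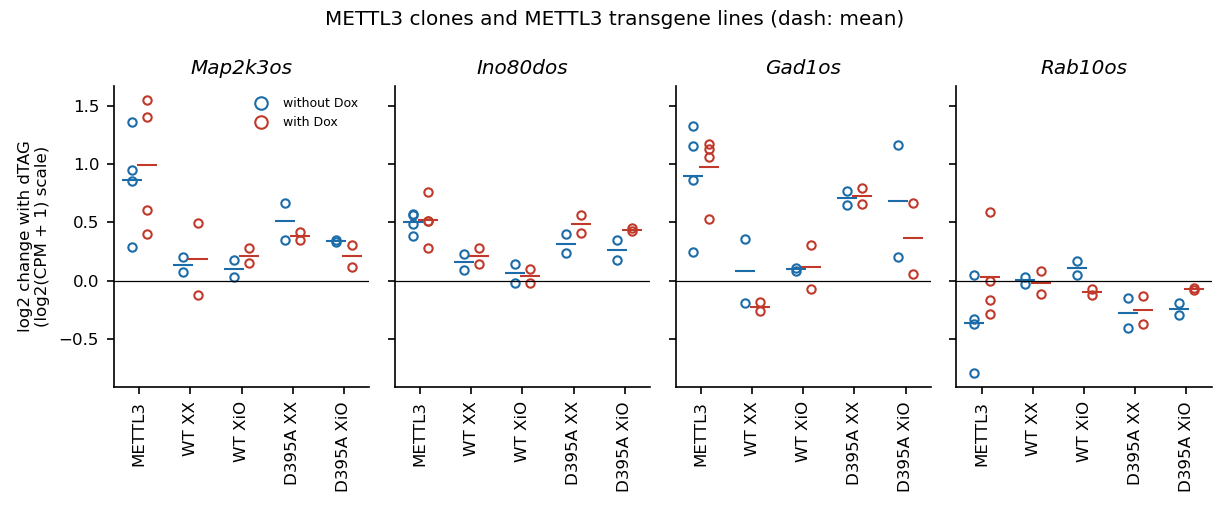
Log2 change with dTAG (y axis, log2(CPM + 1) scale) of 4 opposite-strand transcripts in the 4 METTL3 clones and in the transgene lines (x axis, 2 experiments each), without Dox (blue) and with Dox (red), with dashes for the mean. Map2k3os, Ino80dos and Gad1os lie above 0 in METTL3 clones and D395A lines, and the means of Map2k3os in the WT lines are 0.10 to 0.22.

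After YTHDC1 loss, Otx2os1 was higher in every contrast, and the share of transcripts called, 3 or 4 in each contrast, was not tested against that of all genes. In the table shared with ZCCHC8, 1 of 32 was higher and 3 lower without Dox, where 10.6% and 8.45% of 13857 genes were, and 3 were higher and 0 lower with Dox, where 9.84% and 5.69% were. In the separate table, 1 of 26 was higher and 2 lower without Dox, where 8.34% and 9.42% of 13722 genes were, and 3 higher and 0 lower with Dox, where 8.32% and 6.34% were. Median changes lay between -0.05 and 0.07. With either clone left out 0 were called in the shared table (limma, with 4 to 6 at an unadjusted p under 0.05), and 0 in all 4 contrasts without the clone as a block (limma, with 3 to 5 at an unadjusted p under 0.05), while edgeR with the block called 3 or 4 in each.

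Otx2os1 was the only transcript higher in all 4 YTHDC1 contrasts. In the shared table it was at 42.9 and 42.3 CPM in untreated Y9F and Y12H and at 52.9 and 52.9 CPM with dTAG, and at 37.8 and 38.3 CPM with Dox and 47.7 and 49.7 CPM with dTAG + Dox (0.31 ± 0.07 and 0.35 ± 0.07). In the separate table it was at 62.9 and 70.0 CPM untreated and 94.3 and 92.9 CPM with dTAG, and at 52.1 and 49.9 CPM with Dox and 84.5 and 73.3 CPM with dTAG + Dox (0.49 ± 0.08 and 0.62 ± 0.08). Treated libraries lay above the controls in every clone. Otx2 did not pass in any of these contrasts. Srrm4os was lower without Dox in both tables (-0.36 ± 0.10 and -0.60 ± 0.12, adjusted p = 0.022 and 0.0014) and did not pass with Dox (-0.20 ± 0.10 and -0.27 ± 0.12). Sorbs2os was higher with Dox in both (0.41 ± 0.11 and 0.34 ± 0.11). Calls in a single contrast were Ino80dos (-0.23 ± 0.08), Tmem150cos (-0.62 ± 0.18) and Gad1os (0.63 ± 0.16) in the shared table, and Mkln1os (0.53 ± 0.14) and Vax2os (-0.44 ± 0.14) in the separate table.

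Within the shared table the ZCCHC8 and YTHDC1 changes were compared by an interaction term. The ZCCHC8 change was the larger for 20 of 32 transcripts without Dox (13.9% of all genes) and for 22 with Dox (17% of all genes), and the smaller for 0 (11.2% and 12.7% of all genes). With Dox, median-ratio scaling turned the balance over all genes from 2351 larger and 1757 smaller to 1942 and 2750, with 19 transcripts larger and Sorbs2os smaller. With no filter, it was the larger for 36 of 93 without Dox (10.5% of all genes, with 6.48% smaller) and for 41 with Dox (13%, with 7.45% smaller), and the smaller for 0. The transcripts that did not pass this test in either contrast were Ptgs2os, Rab10os, Fam120aos, Rab26os, Frs3os, Gad1os, Vax2os, Sorbs2os and Ppp1r3fos. ZCCHC8 and ZFC3H1 or METTL3 were sequenced and scaled in separate tables, and the differences between them were not tested.

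Rbm3os is X-linked, and the share of its variant reads from the X that carries the inducible Xist was available in part. In ZFC3H1 clones 8H and 11A it was 0.16 and 0.55 untreated and 0.37 and 0.29 with dTAG. With Dox it was 0.22 and 0.50, and with dTAG + Dox 0.29 and 0.31. Untreated clones differed as widely as any treatments. In the transgene XX lines it was 0.38 in both untreated D395A experiments and 0.64 and 0.50 with dTAG, and 0.67 and 0.50 in untreated WT and 0.56 and 0.63 with dTAG. With Dox it was 0.40 and 0.33 in D395A and 0.83 and 0.33 in WT, and with dTAG + Dox 0.38 and 0.33 in D395A and 0.56 and 0.67 in WT. The read numbers behind these shares are unknown. For Rbm3 the share in ZFC3H1 clones 8H and 11A was 0.42 in both with Dox and 0.45 and 0.44 with dTAG + Dox. In METTL3 cells its median over 4 clones was 0.42 with Dox and 0.39 with dTAG + Dox. The clones overlapped, at 0.39 to 0.44 and 0.36 to 0.41. The 2 WT XX experiments were at 0.41 and 0.42 with Dox and 0.41 and 0.39 with dTAG + Dox. Those of D395A XX were at 0.37 and 0.41 with Dox and 0.39 and 0.37 with dTAG + Dox. Differences between these lines were not tested.

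The rows that are protein-coding were kept apart. Of the 9 with an opposite-strand name (Cebpzos, Toporsos, Zbtb8os, Fancd2os, Crxos, Wdr83os, Slc7a6os, Ccpg1os and Trpc5os), 7 were tested in the ZCCHC8 line. Among these, Cebpzos (0.53 ± 0.14 and 0.64 ± 0.14) and Ccpg1os (0.74 ± 0.16 and 0.67 ± 0.16) were higher in both contrasts. Over all genes, 19.9% were higher without Dox and 25.2% with Dox. Of the 12 that merely end in os (Otos, Dos, Sos1, Sos2, Nrros, Pros1, Mocos, Nanos1, Nanos3, Minos1, Mios and Uros), 11 were tested, with 3 higher and 1 lower without Dox (19.9% and 16.2% of all genes) and 4 higher and 2 lower with Dox (25.2% and 15.2%). In the ZFC3H1 line 0 of 7 and 0 of 11 passed without Dox, and 0 of 7 and 1 of 11 with Dox. Over all genes, 1.75% were higher and 0.399% lower without Dox, and 2.53% and 0.62% with Dox.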

How the data were processed

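Per the methods of the authors, rRNA reads were filtered out by Bowtie2 and STAR mapped what was left to N-masked mm10. The authors counted unique reads by strand over whole transcript spans with featureCounts and deposited CPM from edgeR. They also deposited allelic ratios, the fraction of variant reads from the X with inducible Xist. Whole reads were recovered from 100% of CPM values (tolerance 0.05), at 8.58 to 34.4 M reads per library. Columns that matched no sample (12 in the expression tables) were not used.

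The test, made per table on genes averaging 1 CPM or more, was done by limma 3.58.1 (R 4.3.3) on log2(CPM + 1), with group means, the clone as a block and Benjamini-Hochberg adjustment over all genes (called at adjusted p under 0.05). Folds on this scale understate the change of low genes. Clones pair the samples, being the same cell line, and the deviations of same-clone samples correlated at 0.0446 to 0.905. Samples were grouped by their labels, and nothing says how cultures were replicated within a clone, so p-values measure the spread between these samples. The fit was tested on simulated data. Alternatives were another pseudocount, other filters, median-ratio scaling, edgeR 4.0.16 on recovered reads, only the groups compared, no block and leaving out each clone. Named transcripts were those called in both contrasts, ranked by the smaller change (up to 12 for ZCCHC8 and 6 for other lines), up to 3 called in a single contrast, the 4 most abundant, and the protein-coding rows. Others named were chosen after their values were seen. Members and lists were chosen with earlier results of these data known.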

Additional observations from a re-analysis of the deposited data

Results flagged for a closer look

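In 4 of 32 groups of 4 METTL3 clones, a clone stood apart by Dixon's criterion, which chance meets in about 1 in 20 groups. Map2k3os was at 9.95 CPM in untreated H1 (15.4 to 16.2 in the other clones). Ino80dos was at 38.0 CPM in H5 with Dox (45.4 to 46.5) and at 56.8 CPM in C3 with dTAG + Dox (64.9 to 65.2). Ptgs2os was at 1.56 CPM in H5 with Dox (0.615 to 0.704).

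The ZCCHC8 change exceeded the YTHDC1 change (limma interaction, adjusted p under 0.05) for 20 transcripts without Dox and 22 with Dox. Without and with Dox, the log2 difference was 2.77 and 2.26 for Stamos, 1.59 and 1.84 for Cep83os, 2.04 and 1.92 for Hnf4aos, 1.67 and 1.54 for Pla2g10os, and 1.47 and 1.39 for Zfp85os. It was 1.20 and 1.23 for Otx2os1, 1.68 and 1.55 for Zfp652os, 1.59 and 1.56 for Sp3os, and 1.48 and 1.77 for Scpep1os. It was 1.04 and 0.91 for Phtf1os, 1.51 and 1.32 for Wt1os, and 0.77 and 0.76 for Mkln1os. Stamos passed the expression filter only through the libraries with dTAG, and with the filter on the other libraries it was not tested. The lines differ in clones as well as in the tagged protein, and these cannot be told apart.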

How the results depend on the processing

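Over 1705 comparisons of 246 results with their alternatives, 1523 kept direction and call, 134 lost the call, 21 gained it, 27 counts or values moved and 0 reversed. With no filter on low values, the transcripts called (without and with Dox) were 51 and 53 for ZCCHC8, 3 and 3 for ZFC3H1, 10 without Dox for METTL3, 2 without Dox for YTHDC1 in the shared table, and 36 and 41 for the difference between ZCCHC8 and YTHDC1. With only the groups compared, they were 11 with Dox for ZFC3H1, 3 and 0 for METTL3, and 7 with Dox for YTHDC1 in the shared table. A pseudocount of 0.1 gave 6 there. Without the replicate block they were 0 and 0 for ZFC3H1, 2 and 1 for METTL3, 0 in all contrasts of both YTHDC1 tables, whereas the ZCCHC8 counts of 22 and 23 stayed within 1.5 times. Leaving out a clone gave 19 to 22 and 20 to 21 for ZCCHC8, 1 to 6 and 0 to 3 for METTL3, 0 in both YTHDC1 contrasts of the shared table, and 17 to 19 and 16 to 21 for the difference. With 1 of 2 clones left out, each ZCCHC8 or YTHDC1 group is a lone library assumed to vary like the other line in the shared table. It was not run for ZFC3H1 or the separate YTHDC1 table, where no residual degrees of freedom remain. The cause of these shifts was not tested. In the ZCCHC8 line 61 transcripts were too low for the filter, and depth itself was not varied.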
